A study of Mus musculus with 6 samples.

Results

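The cyclin-dependent kinase inhibitors were followed by gene symbol through poly(A) RNA sequencing of mouse pro-B leukaemia cells with and without intact Ikaros. The set holds 7 genes of the 22098 in the table, the Cip/Kip genes Cdkn1a, Cdkn1b and Cdkn1c and the Ink4 genes Cdkn2a, Cdkn2b, Cdkn2c and Cdkn2d, with 10 of its 26531 transcript rows. The cells came from whole bone marrow of C57BL/6 mice, transduced at the start of culture with a BCR-ABL p185 retrovirus that also expresses YFP. Their genotypes were Ikaros ZnF1-/- (ZnF1 mutant), Ikaros ZnF4-/- (ZnF4 mutant) and wild type, and all were transduced with BCR-ABL, so that no untransduced control was among them. A single library was made from each genotype on day 21 and on day 28, 6 in all, and where 2 values are given for a genotype the earlier day comes first. Ikaros, encoded by Ikzf1, is a DNA-binding regulator of lymphocyte development and a tumour suppressor, and the mutants lack zinc finger 1 or zinc finger 4 of its DNA-binding domain. The labels do not say how many mice or cultures stand behind a genotype, nor whether both days of a genotype come from 1 culture. The p-values therefore measure only the spread between these libraries, and a feature of a single culture and an effect of its genotype cannot be told apart.

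Cip/Kip proteins bind complexes of cyclins with Cdk2 and, with other outcomes, with Cdk4 and Cdk6, while Ink4 proteins bind the monomeric kinases Cdk4 and Cdk6 and keep D-type cyclins from them. Both families hold the retinoblastoma protein in its unphosphorylated state, in which it restrains E2F factors and entry into S phase. Cdkn2a also makes Arf, which is no kinase inhibitor: it binds Mdm2 and stabilises p53, and p53 in turn activates Cdkn1a. The Ink4a-Arf locus is known as a barrier to transformation of mouse B-lineage cells by BCR-ABL.

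Cdkn2a gives both products from separate first exons that join the same second exon, and the junction is shown because the deposited table has a row for each. Per the GENCODE annotation of GRCm38, both lie on the minus strand of chromosome 4. The first exon of Ink4a spans chr4:89281986-89282192 and that of Arf chr4:89294334-89294653, and the shared second exon spans chr4:89276645-89276985, with 341 bases. Lower case marks the last 15 bases of the first exon and capitals the first 30 bases of the second.
Ink4a junction: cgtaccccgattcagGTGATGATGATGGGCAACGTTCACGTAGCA
Arf junction: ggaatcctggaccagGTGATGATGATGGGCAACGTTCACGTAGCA
The first exon carries 126 coding bases in Ink4a, a multiple of 3, and 190 in Arf, which leaves a remainder of 1, so the same second-exon letters are read in different frames. Of the Ink4a transcript 67.5% of the bases are shared with the Arf transcript, and of the Arf transcript 64.2% are shared with Ink4a. The sources used here do not give how reads in the shared exons were assigned. Among the 1213 symbols with 2 rows and a mean of at least 5 RPKM in the larger one, the smaller row had a median of 0.0393 of the larger, so the levels of 2 rows of a gene are given below as rows and not as isoform levels.

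Promoter windows were searched for all inhibitor genes, and those of Cdkn1a and Cdkn2a, the most abundant of the genes called lower in the ZnF4 mutant, are shown. RefSeq windows of 300 bases (build GRCm38.p6, 250 bases before to 50 after a start) matched 6 of the 7 genes, in 9 windows. Cdkn1c was not matched. The searched letters were TGGGAA, the core of the Ikaros motif, and CATGNNNNNNCATG, a pair of cores as found in p53 sites, on both strands. The second was chosen after the Cdkn1a window had been read. The Cdkn1a window at its upstream start, chr17:29090729-29091028 on the plus strand, holds CATGNNNNNNCATG in capitals at bases 203 to 216.
Cdkn1a upstream start: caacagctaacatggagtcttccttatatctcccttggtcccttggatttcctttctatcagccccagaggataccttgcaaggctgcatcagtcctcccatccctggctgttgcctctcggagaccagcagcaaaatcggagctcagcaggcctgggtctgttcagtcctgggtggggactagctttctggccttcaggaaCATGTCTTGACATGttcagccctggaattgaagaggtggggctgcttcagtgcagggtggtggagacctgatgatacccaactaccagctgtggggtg
That motif is in 1 of the 9 windows of the inhibitor genes, the one read before the motif was chosen, and in 0.712% of all 32851 windows. The first count was fixed by that choice and shows no enrichment. The Arf window, chr4:89294570-89294869 on the minus strand, holds TGGGAA in capitals at bases 144 to 149.
Cdkn2a Arf start: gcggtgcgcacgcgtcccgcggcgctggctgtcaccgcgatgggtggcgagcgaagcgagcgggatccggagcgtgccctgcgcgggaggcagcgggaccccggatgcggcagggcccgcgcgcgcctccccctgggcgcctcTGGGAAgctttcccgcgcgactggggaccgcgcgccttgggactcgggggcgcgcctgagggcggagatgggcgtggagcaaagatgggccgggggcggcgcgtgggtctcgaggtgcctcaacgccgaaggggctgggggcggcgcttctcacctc
The Ink4a window, chr4:89282143-89282442 on the minus strand, holds neither motif.
Cdkn2a Ink4a start: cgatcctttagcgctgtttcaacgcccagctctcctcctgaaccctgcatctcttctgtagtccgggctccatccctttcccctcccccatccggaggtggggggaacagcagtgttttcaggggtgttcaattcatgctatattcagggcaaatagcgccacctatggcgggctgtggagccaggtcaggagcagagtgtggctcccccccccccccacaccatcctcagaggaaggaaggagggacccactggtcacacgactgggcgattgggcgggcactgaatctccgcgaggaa
TGGGAA is in 3 of the 9 windows, those of Arf, of Cdkn2d and of the downstream start of Cdkn1a, and in 25.6% of all windows. The window of Cdkn2b, also called lower in the ZnF4 mutant, holds neither motif, and neither do those of Cdkn1b and Cdkn2c. A match is a description of these letters and no binding site.

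Values are RPKM as deposited (reads divided by transcript length and library size) and, where differences are given, log2(RPKM + 1) with a pseudocount of 1. A gene was tested when it had at least 1 RPKM in at least 2 of the 6 libraries, and 11379 genes were, among them 5 of the 7 inhibitors. None of these 5 passed through a single genotype alone, and Cdkn1c and Cdkn2d did not pass. Genes were called with limma at a Benjamini-Hochberg adjusted p below 0.05 over all tested genes. The read depth of the libraries is unknown, and 10401 to 11233 genes reached 1 RPKM in a library. Ikzf1 had 108 and 91.4 RPKM in the ZnF1 mutant and 186 and 165.9 RPKM in the ZnF4 mutant, against 89.2 and 78.7 RPKM in wild type. That row sums the whole transcript and does not check the loss of a finger.

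The pro-B label was set beside markers of the B lineage and of early lymphocytes, which do not settle the stage. Pax5, the factor that commits cells to the B lineage, had 177.5 and 172.6 RPKM in the ZnF1 mutant and 170.6 and 145 RPKM in the ZnF4 mutant, against 158.2 and 133.4 RPKM in wild type. Vpreb1, of the surrogate light chain, had 129.4 and 183.3 RPKM in the ZnF1 mutant and 171.5 and 149.1 RPKM in the ZnF4 mutant, against 153.7 and 183.3 RPKM in wild type. Both were high in all 6 libraries. Vpreb1 does not stand for every surrogate light chain gene. Vpreb2, also chosen after its values were seen, had 62.9 and 53.7 RPKM in the ZnF1 mutant and 90.7 and 80.1 RPKM in the ZnF4 mutant. In wild type it had 54.9 and 59.4 RPKM, so the ZnF4 mutant was the highest on both days. Dntt, the terminal transferase of early lymphocytes, chosen after its values were seen, had 85.2 and 76.6 RPKM in the ZnF1 mutant and 36.7 and 18.6 RPKM in the ZnF4 mutant, against 118.8 and 106.7 RPKM in wild type, and was called lower in the ZnF4 mutant than in wild type (-2.06 ± 0.21, adjusted p = 0.00396 with limma, and up to 0.066 over the alternatives). Of the 10 tested pro-B markers 3 were called in the ZnF4 mutant against wild type, Dntt lower and 2 higher, against 18.2% of all tested genes called. Macrophage markers differed between the genotypes. The 10 macrophage genes, Csf1r, C1qa and Lyz2 among them, summed to 1946.1 and 1838.5 RPKM in the ZnF1 mutant and 202.4 and 265.1 RPKM in the ZnF4 mutant, against 494 and 314.8 RPKM in wild type, with none of the 10 at 0. The 9 stromal genes, with Lum at 0 throughout, summed to 168.4 and 161.2 RPKM in the ZnF1 mutant and 18.1 and 17.5 RPKM in the ZnF4 mutant, against 38.4 and 25 RPKM in wild type. All 10 macrophage genes and all 8 tested stromal genes were called higher in the ZnF1 mutant than in wild type, and 6 of 10 macrophage and 4 of 8 stromal genes were called lower in the ZnF4 mutant than in wild type. The 7 T cell markers summed to at most 49 RPKM, with Cd3e, Cd3g and Cd8a at 0 and Lck, at 11.7 to 46.7 RPKM, the largest. All 3 tested were called in the ZnF1 mutant against wild type, against 38.1% of all tested genes. Cd4 (8.5 and 7.2 RPKM, against 0.4 and 0.2 RPKM in wild type) and Tcf7 were higher and Lck lower. The Tcf7 and Lck calls were lost in some alternatives. The 7 erythroid and mast cell markers summed to at most 4.3 RPKM, and Cpa3, the 1 tested, was called higher in the ZnF1 mutant. The part of these other cells in the differences below was not tested. In bulk RNA, fewer cells of a type and less RNA per cell cannot be told apart.

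Cdkn1a, Cdkn2a and Cdkn2b RNA was called lower in the ZnF4 mutant than in wild type, while Cdkn1b and Cdkn2c did not pass the test. These were 3 of the 5 tested inhibitors, all lower, against 18.2% of all tested genes called in this comparison and 7.32% called lower. Each of these 3 calls was lost when certain single libraries were left out. For Cdkn2b the loss came with any 1 of the 6 libraries. The ZnF1 mutant differed from wild type in 1 of 5, Cdkn2b, which was higher, against 38.1% of all tested genes called and 22.9% called higher. Set against the ZnF1 mutant, the ZnF4 mutant was lower for Cdkn1a, Cdkn2a and Cdkn2b, 3 of 5, against 45.5% called and 23.2% called lower. The comparisons share libraries and are not independent of each other. Median differences over all tested genes were 0.02 for the ZnF4 mutant against wild type, -0.02 for the ZnF1 mutant against wild type and 0.03 between the mutants.

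**Figure D1:**
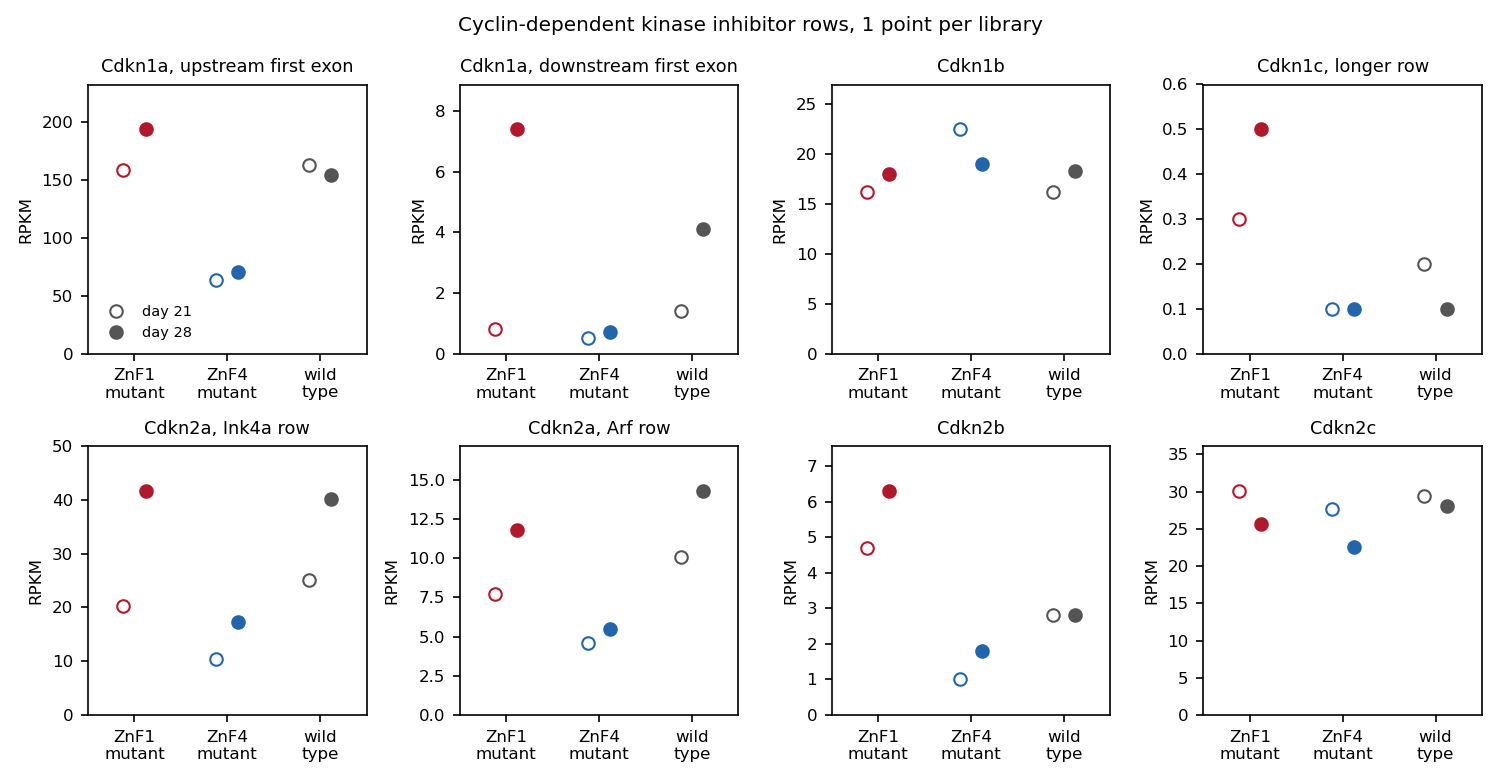
RPKM of 8 inhibitor rows (vertical axes, each from 0 with its own scale) in the ZnF1 mutant, ZnF4 mutant and wild type, with 1 point per library, open at day 21 and filled at day 28. Within each day the ZnF4 mutant lies below the other genotypes for both rows of Cdkn1a, both rows of Cdkn2a and Cdkn2b. It does so too for Cdkn2c, which was not called. The share of all tested genes with such an order is not given. The second Cdkn1c row and Cdkn2d, at 0 to 0.2 RPKM, are not drawn.

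Cdkn1a encodes p21, the Cip/Kip inhibitor that p53 induces in arrest after DNA damage. It was the most abundant inhibitor, with a mean of 134 RPKM that exceeded 97.6% of the tested genes. Its larger row (NM_001111099, upstream first exon) had 158.5 and 193.3 RPKM in the ZnF1 mutant and 63.1 and 70.7 RPKM in the ZnF4 mutant, against 162.8 and 154.1 RPKM in wild type. Both ZnF4 libraries lie below all 4 others with no overlap, and the ZnF1 mutant and wild type overlap. How many of all tested genes show such a gap is not given, so a lack of overlap, here and below, only describes the values. Mean Cdkn1a in the ZnF4 mutant was 0.422 of that in wild type. The difference was -1.23 ± 0.11 (log2 scale, SE, adjusted p = 0.00245 with limma) against wild type and -1.38 ± 0.11 (adjusted p = 0.000726 with limma) against the ZnF1 mutant. The call against wild type was lost without the ZnF4 library of day 21 (adjusted p = 0.0504 with limma) or of day 28 (adjusted p = 0.0541 with limma), with differences of -1.20 and -1.26 and a range of 0.00114 to 0.0541 over all alternatives, and the call against the ZnF1 mutant held in all 13 alternatives.

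Between the ZnF1 mutant and wild type, Cdkn1a differed by 0.14 (95% interval -0.12 to 0.41, adjusted p = 0.326 with limma). It was called higher only after quantile scaling (0.29, adjusted p = 0.0466 with limma, against up to 0.972 in the other alternatives). On day 28 the difference was 0.33 and on day 21 it was -0.04. The smaller Cdkn1a row (NM_007669, downstream first exon) had 0.8 and 7.4 RPKM in the ZnF1 mutant and 0.5 and 0.7 RPKM in the ZnF4 mutant, against 1.4 and 4.1 RPKM in wild type. With every row as a feature its difference was -1.13 ± 0.46 in the ZnF4 mutant against wild type (adjusted p = 0.169 with limma), and it was not called.

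Cdkn2a was read from its larger row, that of p16 Ink4a (NM_001040654), the inhibitor of Cdk4 and Cdk6 that accumulates in senescent cells. The row had 20.3 and 41.7 RPKM in the ZnF1 mutant and 10.4 and 17.3 RPKM in the ZnF4 mutant, against 25.2 and 40.2 RPKM in wild type. Each ZnF4 library lies below every library of the other genotypes. On average the ZnF4 mutant had 0.424 of the wild-type level. Its difference was -1.19 ± 0.11 against wild type (adjusted p = 0.00273 with limma) and -1.06 ± 0.11 against the ZnF1 mutant (adjusted p = 0.00135 with limma). Within day 21 the difference from wild type was -1.20 and within day 28 it was -1.17. Without day as a replicate block the adjusted p was 0.12 against wild type and 0.0883 against the ZnF1 mutant, both with limma. The call against wild type was also lost without wild type at day 21 (adjusted p = 0.0545 with limma) and without the ZnF4 mutant at day 28 (adjusted p = 0.0587 with limma), and over all alternatives the value ran from 0.00137 to 0.12. The ZnF1 mutant differed from wild type by -0.12 (95% interval -0.40 to 0.15, adjusted p = 0.401 with limma).

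The Arf row of Cdkn2a (NM_009877) encodes the p19 Arf protein that binds Mdm2. It had 7.7 and 11.8 RPKM in the ZnF1 mutant and 4.6 and 5.5 RPKM in the ZnF4 mutant, against 10.1 and 14.3 RPKM in wild type. The ZnF4 libraries are again the lowest, with no overlap. With each of 12530 rows as a feature the Arf row was called lower in the ZnF4 mutant, with differences of -1.11 ± 0.11 against wild type (adjusted p = 0.00404 with limma) and -0.81 ± 0.11 against the ZnF1 mutant (adjusted p = 0.0038 with limma). Its difference in the ZnF1 mutant against wild type was -0.30 ± 0.11 and was not called (adjusted p = 0.0857 with limma). As 64.2% of the Arf transcript is shared with Ink4a and read assignment is not given, the calls of the 2 rows may rest on the same reads. The Ink4a row held 72.5% and 77.9% of the summed RPKM of both rows in the ZnF1 mutant. The shares were 69.3% and 75.9% in the ZnF4 mutant, against 71.4% and 73.8% in wild type. Those shares overlap between genotypes, and the larger value was at day 28 in each of the 3.

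Cdkn2b encodes p15 Ink4b, the inhibitor induced by transforming growth factor beta, next to Cdkn2a on chromosome 4. It was the lowest of the tested inhibitors, with 4.7 and 6.3 RPKM in the ZnF1 mutant and 1 and 1.8 RPKM in the ZnF4 mutant, against 2.8 and 2.8 RPKM in wild type. The 3 genotypes do not overlap: the ZnF1 mutant is above and the ZnF4 mutant below wild type. Mean Cdkn2b in the ZnF1 mutant was 1.96 times that in wild type, and the difference was 0.76 ± 0.14 (adjusted p = 0.0128 with limma). In the ZnF4 mutant the mean was 0.5 of the wild-type level, with a difference of -0.68 ± 0.14 (adjusted p = 0.0311 with limma). Against the ZnF1 mutant the ZnF4 mutant was lower, with a difference of -1.45 ± 0.14 (adjusted p = 0.00126 with limma), a call that held in all 12 alternatives that tested the gene.

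The Cdkn2b calls against wild type depended on single libraries. That of the ZnF1 mutant was lost without a filter on low values (adjusted p = 0.0517 with limma), without wild type at day 28 (0.0887), without the ZnF1 mutant at day 21 (0.0746) and without the ZnF1 mutant at day 28 (0.0887), and the lowest value over all alternatives was 0.00901. The ZnF4 call was lost without the filter (adjusted p = 0.111 with limma), without the replicate block (0.0757), and when any 1 of the 6 libraries was left out (0.0522 to 0.19), and the lowest value over all alternatives was 0.017. Cdkn2b followed the order of the macrophage and stromal marker sums above, highest in the ZnF1 mutant and lowest in the ZnF4 mutant, and their part in the result was not tested. The 3 genes most like it over the 6 libraries were Tapbp, a peptide loading factor of antigen presentation (Pearson r = 0.99), Serpine2, a secreted protease inhibitor (0.99), and Fbln2, a matrix protein (0.99). Serpine2 had 20.5 and 27.8 RPKM in the ZnF1 mutant and 1.4 and 2.6 RPKM in the ZnF4 mutant, against 7.5 and 8.7 RPKM in wild type.

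Cdkn1b encodes p27, the inhibitor that holds quiescent cells out of the cycle and is removed by the Skp2 ubiquitin ligase. It had 16.2 and 18 RPKM in the ZnF1 mutant and 22.5 and 19 RPKM in the ZnF4 mutant, against 16.2 and 18.3 RPKM in wild type. Both ZnF4 libraries are the highest, by a narrow gap at day 28. The difference in the ZnF4 mutant was 0.25 against wild type (95% interval -0.05 to 0.55, adjusted p = 0.22 with limma) and 0.26 against the ZnF1 mutant (95% interval -0.04 to 0.56, adjusted p = 0.13 with limma). The second was called without the ZnF4 library of day 28 (0.46, adjusted p = 0.0246 with limma, against up to 0.498 in the other alternatives). The ZnF1 mutant differed from wild type by -0.01 (95% interval -0.31 to 0.29, adjusted p = 0.947 with limma).

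Cdkn2c encodes p18 Ink4c, an inhibitor of Cdk4 and Cdk6 in lymphocytes. It had 30.1 and 25.6 RPKM in the ZnF1 mutant and 27.6 and 22.5 RPKM in the ZnF4 mutant, against 29.4 and 28 RPKM in wild type. Both ZnF4 libraries lie below both wild-type libraries, and the ZnF1 mutant overlaps each of the other genotypes. Within each day the ZnF4 value was the lowest of the 3 genotypes. Its difference from wild type was -0.20 in the ZnF4 mutant (95% interval -0.40 to 0.01, adjusted p = 0.169 with limma) and -0.05 in the ZnF1 mutant (95% interval -0.25 to 0.16, adjusted p = 0.681 with limma). Between the mutants the ZnF4 mutant differed from the ZnF1 mutant by -0.15 (95% interval -0.35 to 0.05, adjusted p = 0.184 with limma).

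Cdkn1c, the imprinted p57 gene, was near 0 in both of its rows. The longer row (NM_001161624) had 0.3 and 0.5 RPKM in the ZnF1 mutant and 0.1 and 0.1 RPKM in the ZnF4 mutant, against 0.2 and 0.1 RPKM in wild type, and the shorter row (NM_009876) had at most 0.2 RPKM in any library. Values were deposited with 1 decimal, so these are a few steps of the scale. Cdkn2d, the p19 Ink4d gene, was listed at 0 in all 6 libraries. The same holds for 32.9% of all rows, and Gapdh, a glycolytic enzyme of every cell, was listed at 0.8 to 1.3 RPKM and Ppia, a common reference transcript, at 0.5 to 0.9 RPKM beside Actb at 1452.9 to 2035.2 RPKM. A value of 0 is therefore given as listed and not read as absence. Gapdh, Ppia and Actb were chosen after their values were seen.

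**Figure D2:**
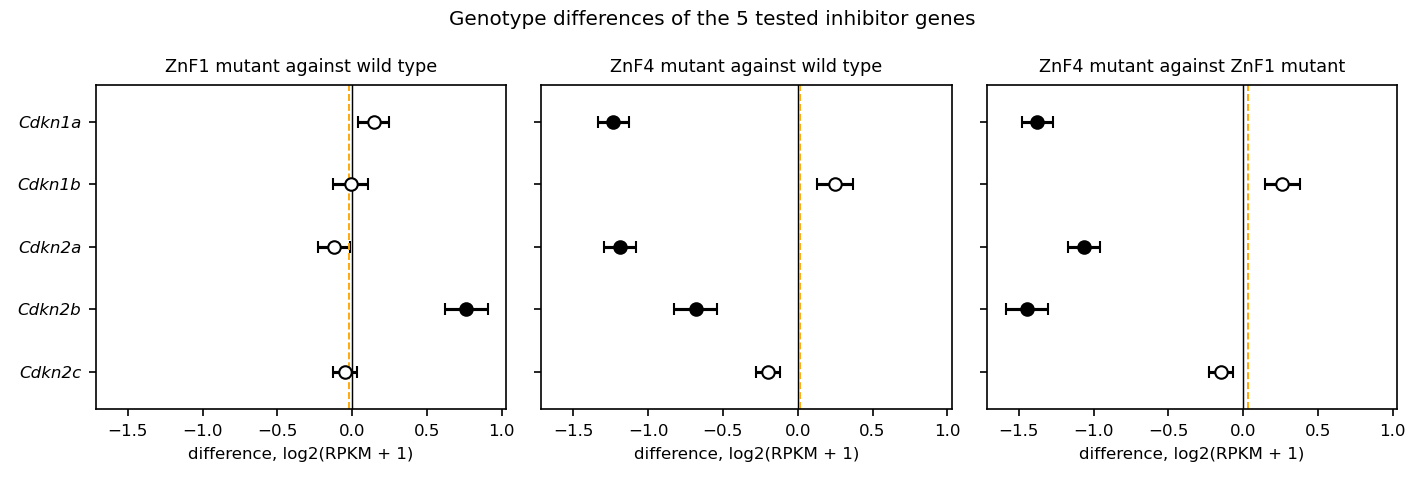
Differences in log2(RPKM + 1) of the 5 tested inhibitor genes (horizontal axis, points with SE bars) for the ZnF1 mutant against wild type, the ZnF4 mutant against wild type and the ZnF4 mutant against the ZnF1 mutant, filled where called, with the median over all tested genes as a dashed line. Cdkn1a and Cdkn2a lie below -1 in both comparisons of the ZnF4 mutant, and Cdkn2b lies at 0.76, -0.68 and -1.45.

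Per length, the order of the inhibitors in every library began with Cdkn1a, whose lowest value of 63.1 RPKM exceeds the highest of any other inhibitor row, 41.7 RPKM. Cdkn2c and the Ink4a row of Cdkn2a, with means of 27.2 and 25.9 RPKM, overlap over the libraries, and so do the Ink4a row and Cdkn1b, with a mean of 18.4 RPKM. The Arf row of Cdkn2a, at 4.6 to 14.3 RPKM, and Cdkn2b, at 1 to 6.3 RPKM with a mean of 3.23 RPKM, came below and overlap each other over the libraries. Summed over its rows, the Cip/Kip family had 175.8 and 219.4 RPKM in the ZnF1 mutant and 86.2 and 90.6 RPKM in the ZnF4 mutant, against 180.7 and 176.6 RPKM in wild type. The Ink4 family, with Arf counted in it, had 62.8 and 85.4 RPKM in the ZnF1 mutant and 43.6 and 47.1 RPKM in the ZnF4 mutant, against 67.5 and 85.3 RPKM in wild type. The Cip/Kip sum is carried by Cdkn1a, and in both families the ZnF4 mutant has the lowest values on both days.

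Between day 28 and day 21 no gene passed the test. None of the 5 inhibitors was called, against 0% of 11379 tested genes, with 1631 genes at an unadjusted p below 0.05 and 0 called by limma in any alternative. Among the 5 tested genes, each read from its larger row, the largest day difference was that of Cdkn2a, 0.78 ± 0.09 (unadjusted p = 0.000234, adjusted p = 0.154 with limma), which ranked 15 by p over all tested genes. The RPKM ratio of day 28 to day 21 was 2.05 in the ZnF1 mutant, 1.66 in the ZnF4 mutant and 1.60 in wild type. Its value at day 28 was higher in 3 of 3 genotypes. The Arf row had a day difference of 0.41 ± 0.09 (adjusted p = 0.184 with limma), higher at day 28 in 3 of 3, and the smaller Cdkn1a row one of 1.16 ± 0.37 (adjusted p = 0.269 with limma).

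Among the 5 tested genes the day differences of the other 4 were smaller. Cdkn2b differed by 0.28 ± 0.12 (adjusted p = 0.363 with limma), higher at day 28 in both mutants and equal in wild type. Cdkn2c differed by -0.19 ± 0.07 (adjusted p = 0.304 with limma), lower at day 28 in 3 of 3 genotypes. Cdkn1a differed by 0.12 ± 0.09 (adjusted p = 0.552 with limma) and Cdkn1b by 0.03 ± 0.10 (adjusted p = 0.923 with limma), and for both the sign was not the same in the 3 genotypes. With 1 library per genotype and day, a change of the genotype difference with the day was not tested.

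**Figure D3:**
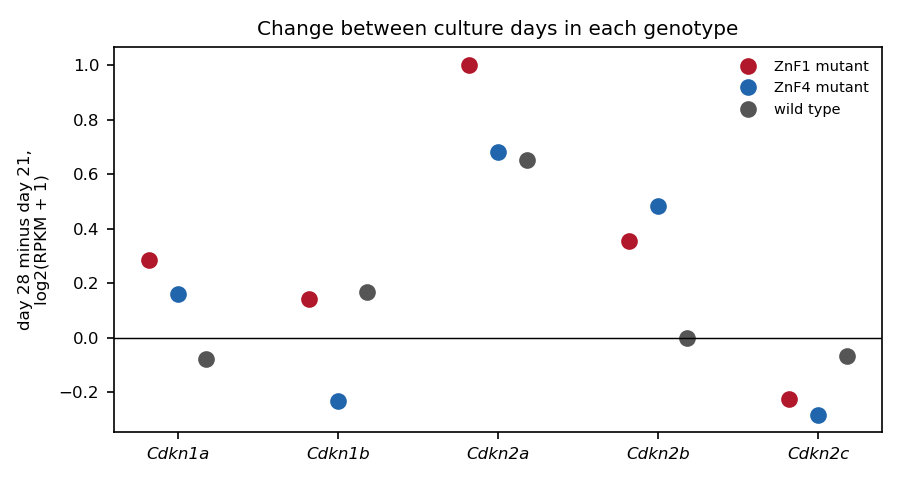
Day 28 minus day 21 in log2(RPKM + 1) (vertical axis) of the 5 tested inhibitor genes, with 1 point per genotype. Cdkn2a is higher at day 28 in all 3 genotypes, most in the ZnF1 mutant, then by 0.68 in the ZnF4 mutant and 0.65 in wild type, and the other genes stay within -0.28 to 0.49.

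The kinases and cyclins that these proteins hold in check were compared as a list with wild type in each mutant. Of 12 tested cyclin and Cdk genes 8 were called lower and 1 higher in the ZnF1 mutant than in wild type, against 15.2% of all tested genes called lower, with a median difference of -0.42. Ccne1, the cyclin partner of Cdk2 at the start of S phase, fell by 0.66 ± 0.07 (adjusted p = 0.00211 with limma), and Ccna2, the cyclin of S phase and G2, had 131.5 and 139.8 RPKM in the ZnF1 mutant against 202.2 and 209.3 RPKM in wild type. The exception was Ccnd1, cyclin D1, which activates Cdk4 and Cdk6. It had 46.1 and 41.1 RPKM in the ZnF1 mutant and 31.5 and 33.2 RPKM in the ZnF4 mutant, against 5.7 and 4.9 RPKM in wild type. Both mutants lie far above wild type, by 2.82 ± 0.09 (adjusted p = 0.000907 with limma) in the ZnF1 mutant and 2.41 ± 0.09 (adjusted p = 0.000537 with limma) in the ZnF4 mutant. In the ZnF4 mutant against wild type 2 of 12 were called, both higher, Ccnd1 and Cdk6, against 18.2% of all tested genes called, and the median was 0.21. Cdk6 had 49.4 and 68.6 RPKM in the ZnF4 mutant, against 36.2 and 32.8 RPKM in wild type (0.74 ± 0.16, adjusted p = 0.0349 with limma, and up to 0.206 over the alternatives).

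Genes of replication and mitosis, among them Mki67, the Mcm helicase subunits and the Aurora kinases, were called lower in the ZnF1 mutant than in wild type in 17 of 17, with a median of -0.51, against 15.2% of all tested genes called lower. Mki67 had 163 and 137.6 RPKM in the ZnF1 mutant, against 248.9 and 215.6 RPKM in wild type. In the ZnF4 mutant 2 of 17 were called against wild type, Aurkb and Bub1, both higher, against 10.9% of all tested genes called higher, and 0 of 17 were called without wild type or the ZnF4 mutant at either day or the ZnF1 mutant at day 21, and 1 without the ZnF1 mutant at day 28. Against the ZnF1 mutant 17 of 17 were called higher in the ZnF4 mutant, against 22.3% of all tested genes. Without wild type at day 21, wild type at day 28, the ZnF1 mutant at day 21 or the ZnF1 mutant at day 28, the count in the ZnF1 mutant was 0, 2, 2 and 5 of 17, with medians of -0.52 to -0.41 over all alternatives. The macrophage marker sums of 1946.1 and 1838.5 RPKM in the ZnF1 mutant, against 494 and 314.8 RPKM in wild type, stand beside this group and the other lists called in the ZnF1 mutant, and their part in these was not tested. Cyclin and Cdk calls of either direction in the ZnF1 mutant, 9 with all libraries, were 2, 2, 2 and 5 without the same libraries.

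Of the Rb and E2F family 0 of 13 were called higher and 7 lower in the ZnF1 mutant than in wild type, with a median of -0.37, against 22.9% of all tested genes called higher and 15.2% called lower. E2f7 and E2f8, repressors that E2F activity itself induces, fell by 0.63 ± 0.07 (adjusted p = 0.00297 with limma, and up to 0.0564 over the alternatives) and 0.70 ± 0.09 (adjusted p = 0.00347 with limma, and up to 0.0615). In the ZnF4 mutant 1 of 13 was called higher, E2f7, and 1 lower, E2f8, with a median of -0.03, against 18.2% of all tested genes called. None of the 13 was called without wild type at day 21, wild type at day 28 or the ZnF4 mutant at day 28, and 1 was without the ZnF4 mutant at day 21. Rb1 itself stood at 22.4 and 26.6 RPKM in the ZnF1 mutant and 24.5 and 21.1 RPKM in the ZnF4 mutant, against 24 and 26.9 RPKM in wild type. Without wild type at day 21, wild type at day 28, the ZnF1 mutant at day 21 or the ZnF1 mutant at day 28, the family count in the ZnF1 mutant was 2, 0, 2 and 3 of 13.

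The p53 axis lies between Arf and Cdkn1a. Of its 16 tested genes 8 were called lower and 1 higher in the ZnF4 mutant than in wild type, with a median of -0.44, against 7.32% of all tested genes called lower. The p53 targets Trp53inp1 and Zmat3 had the smallest p among them. Trp53inp1, a cofactor of p53, had 20.6 and 19.4 RPKM in the ZnF4 mutant, against 42.5 and 48.6 RPKM in wild type (-1.15 ± 0.09, adjusted p = 0.00223 with limma). Zmat3, an RNA-binding p53 target, had 18.3 and 22.3 RPKM in the ZnF4 mutant, against 37.1 and 39.8 RPKM in wild type (-0.89 ± 0.09, adjusted p = 0.00377 with limma), and Eda2r, a death receptor gene, had 0.4 and 0.5 RPKM in the ZnF4 mutant, against 1.7 and 2.8 RPKM in wild type. The Eda2r values in the ZnF4 mutant lie near the floor of the deposited scale. The 1 gene called higher was Sesn2, with 6.2 and 8.8 RPKM in the ZnF4 mutant, against 3.5 and 4.4 RPKM in wild type. Trp53 itself stood at 112.2 and 122.6 RPKM in the ZnF4 mutant, against 125.9 and 106.2 RPKM in wild type. Of the same genes 4 were called higher and 1 lower in the ZnF1 mutant than in wild type, with a median of 0.14, against 22.9% of all tested genes called higher and 15.2% called lower. Btg2, an antiproliferative p53 target, was one of the 4 (42.1 and 45.2 RPKM in the ZnF1 mutant, 13.9 and 10.6 RPKM in wild type), and Trp53 was the lower one (adjusted p = 0.0326 with limma, and up to 0.254 over the alternatives). The 9 calls of either direction in the ZnF4 mutant became 2 without wild type at day 21, 1 without wild type at day 28, 5 without the ZnF4 mutant at day 21 and 2 without the ZnF4 mutant at day 28. The 5 calls in the ZnF1 mutant became 1 without wild type at day 21 or at day 28, 2 without the ZnF1 mutant at day 21 and 1 without it at day 28.

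**Figure D4:**
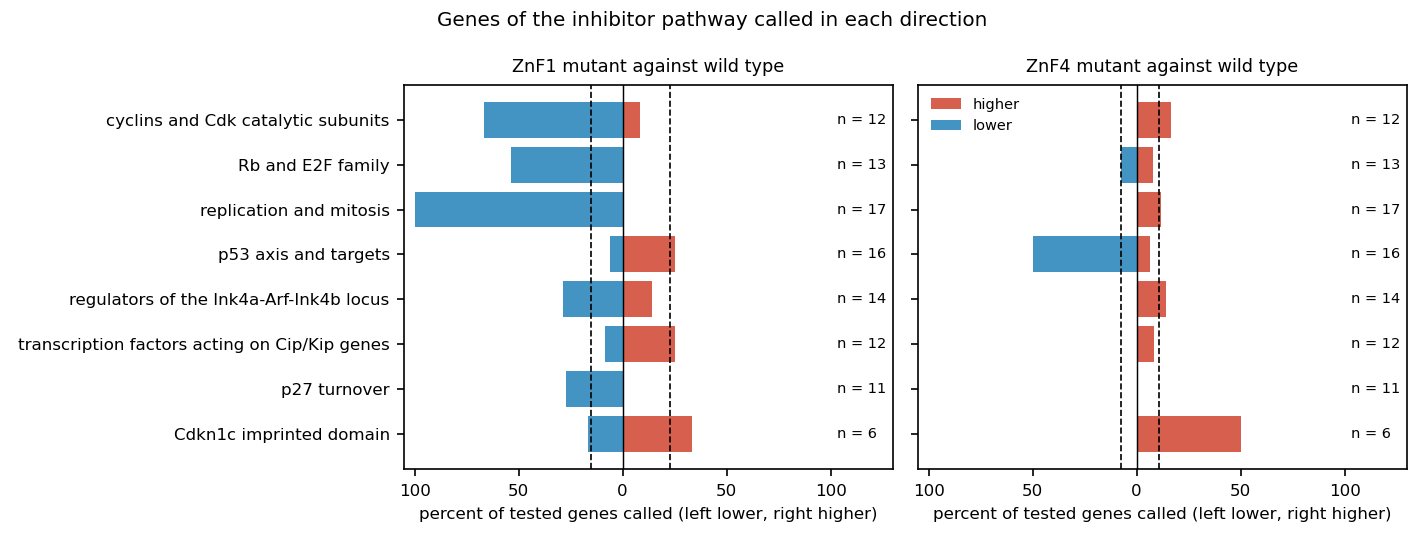
Percent of the tested genes of 8 pathway lists called in each direction (horizontal axis, lower to the left and higher to the right) in the ZnF1 mutant against wild type and in the ZnF4 mutant against wild type, with the number tested beside each bar and the shares over all tested genes as dashed lines. In the ZnF1 mutant all 17 replication and mitosis genes are on the lower side, and in the ZnF4 mutant 8 of the 16 p53 axis genes are. The Cdkn1c imprinted domain list also counts H19 and Igf2 of the neighbouring domain.

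Regulators of the Ink4a-Arf-Ink4b locus, many of them Polycomb proteins, were called higher in 2 of 14 and lower in 0 in the ZnF4 mutant against wild type, with a median of 0.04, against 10.9% of all tested genes called higher and 18.2% called in either direction. The called genes were Kdm2b, a demethylase of a variant Polycomb complex (14.1 and 15.7 RPKM in the ZnF4 mutant, 10.1 and 10.1 RPKM in wild type), and Rnf2, the ubiquitin ligase of Polycomb complex 1 (29.5 and 28.3 RPKM in the ZnF4 mutant, 22.8 and 22.8 RPKM in wild type). Without wild type at day 21 or day 28, or without the ZnF4 mutant at either day, 0 of the 14 were called. Against wild type, the ZnF1 mutant had 2 of 14 called higher, Id1 and Ets2, and 4 lower, among them Ezh2 and Suz12 of Polycomb complex 2, against 38.1% of all tested genes called. These 6 calls became 1 without wild type at day 21 or at day 28 or without the ZnF1 mutant at day 21, and 3 without the ZnF1 mutant at day 28. Ezh2, the methyltransferase of that complex, had 130.9 and 145.8 RPKM in the ZnF1 mutant, against 199.8 and 198.5 RPKM in wild type. Bmi1, a classical repressor of the locus, was not called in either mutant, with 7.3 and 6 RPKM in the ZnF1 mutant and 6.6 and 6.1 RPKM in the ZnF4 mutant, against 7.4 and 6.9 RPKM in wild type.

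Transcription factors known to act on Cip/Kip genes were called in 1 of 12 in the ZnF4 mutant against wild type, Smad3, which was higher, with a median of 0.10, against 18.2% of all tested genes called. Smad3, a transducer of transforming growth factor beta, had 9.2 and 9.1 RPKM in the ZnF4 mutant, against 7.1 and 5 RPKM in wild type. Called higher in the ZnF1 mutant than in wild type were 3 of 12, Smad3, Egr1 and Klf4, and 1 lower, Sp1, against 38.1% of all tested genes called. These 4 calls became 2 without wild type at day 21, 0 without wild type at day 28, 1 without the ZnF1 mutant at day 21 and 3 without it at day 28, and the call of Smad3 in the ZnF4 mutant had an adjusted p of up to 0.257 over the alternatives with limma. Myc, which represses Cdkn1a and Cdkn2b with Zbtb17, had 141.8 and 145.2 RPKM in the ZnF1 mutant and 206.2 and 302.4 RPKM in the ZnF4 mutant, against 172.7 and 175.9 RPKM in wild type. Myc was not called against wild type in the ZnF4 mutant, and it was called higher in the ZnF4 mutant than in the ZnF1 mutant (0.80 ± 0.15, adjusted p = 0.0103 with limma, and up to 0.0741 over the alternatives). The Foxo genes, which activate Cdkn1b, were not called against wild type in either mutant. Between the mutants Foxo3 was called lower in the ZnF4 mutant (-0.31 ± 0.09, adjusted p = 0.041 with limma), a call lost in many alternatives. Foxo1 and Foxo4 were not called between the mutants.

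Genes of p27 turnover were called by limma in 0 of 11 in the ZnF4 mutant against wild type, with 2 at an unadjusted p below 0.05 and a median of 0.05, against 18.2% of all tested genes called. The ZnF1 mutant had 3 of 11 called against wild type, all lower: Skp2, which recognises p27, its cofactor Cks1b, and Cul4b. Of all tested genes 38.1% were called in that comparison and 15.2% were called lower. Skp2 had 15 and 14.7 RPKM in the ZnF1 mutant and 26.5 and 23.4 RPKM in the ZnF4 mutant, against 22.2 and 19.4 RPKM in wild type. Between the mutants 6 of 11 were called higher in the ZnF4 mutant, against 22.3% of all tested genes, but 1 without the ZnF1 mutant at day 21 or at day 28. Leaving out wild type at day 21, wild type at day 28 or the ZnF4 mutant at day 21 gave 4. The ZnF1 count was 0, 0, 0 and 1 of 11 without wild type at day 21, wild type at day 28, the ZnF1 mutant at day 21 or the ZnF1 mutant at day 28.

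In the list for the imprinted region that holds Cdkn1c, which also counts H19 and Igf2 of the neighbouring domain, 6 of 11 genes were tested. The RNA Kcnq1ot1, whose transcription silences the paternal Cdkn1c allele, stood at 1.4 to 1.8 RPKM in all libraries, and Phlda2 and Ascl2 were listed at 0. H19, from the neighbouring imprinted domain, had 23.7 and 36 RPKM in the ZnF1 mutant and 3062.2 and 2008.3 RPKM in the ZnF4 mutant, against 12.2 and 1.3 RPKM in wild type. Igf2, its growth factor neighbour, had 6.1 and 5.9 RPKM in the ZnF1 mutant and 247.2 and 175.2 RPKM in the ZnF4 mutant, against 0.7 and 0.2 RPKM in wild type. The ZnF4 mutant is far above the other genotypes for both, while Cdkn1c stayed at 0.1 RPKM in its libraries. Igf2 and H19 were also called higher in the ZnF1 mutant than in wild type. The differences were 2.29 ± 0.14 for Igf2 (adjusted p = 0.001 with limma) and 2.46 ± 0.69 for H19 (adjusted p = 0.0422 with limma). That H19 call was lost in several alternatives, among them a pseudocount of 0.1 and no replicate block. For Igf2 the difference in the ZnF4 mutant against wild type was 7.19 ± 0.14 (adjusted p = 0.000288 with limma). For H19 it was 8.81 ± 0.69 (adjusted p = 0.00194 with limma), and up to 0.0603 when a ZnF4 library was left out.

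Genes with profiles most like those of the inhibitors were taken by Pearson r of log2(RPKM + 1) over the 6 libraries, among genes that span at least 1 on that scale (2412 or 2413 genes). The libraries share their genotypes and days, so r is a description. Cdkn1a was most like Bcl2, the survival factor (0.99), Zbp1, a sensor of Z-form nucleic acid (0.99), and Polm, a DNA polymerase of end joining (0.99). Bcl2 had 3.9 and 5.2 RPKM in the ZnF1 mutant and 2 and 2.1 RPKM in the ZnF4 mutant, against 4.4 and 4.3 RPKM in wild type. Cdkn2a was most like Rgs8 (0.98), Pigyl (0.98) and Isg20, an exonuclease induced by interferon (0.97). Cdkn1b, with a span of only 0.45, was most like Cd244 (0.94), Cox7a1 (0.93) and H1f0 (0.93), and Cdkn2c, with a span of 0.40, reached 0.85 with Eci1, 0.84 with Mir1894 and 0.84 with Slc12a7.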

How the data were processed

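Poly(A) RNA from 6 libraries was analysed, 1 per genotype (n = 2 each) at day 21 and day 28. Per the labels' protocols, RNA was enriched with a poly(A) kit and sequenced as fragmented double-stranded cDNA, with no strand-marking step named. The submitters' processing notes name TopHat, bedtools and the build mm9, without versions. The authors deposited RPKM per RefSeq transcript row, rounded to 1 decimal. Depth is unknown: low values showed no steps of single reads, so no counting interval is given. A stray entry (1 row) was left out. The row with the highest mean stood for each symbol. Of log2(RPKM + 1), limma 3.58.1 in R 4.3.3 fitted additive terms for genotype and day to all libraries, with day as the replicate block, moderation and trend (2 residual degrees of freedom, prior 3.22). The steps were tested on simulated data. The day labels pair the libraries: changes between days correlated across genes between genotypes (r = 0.226, 0.433 and 0.249). At most 5.61% of values were identical between libraries. The inhibitor genes, lists and tests were chosen with earlier results of these data known. From each of the 8 pathway lists (13 lists with the markers), up to 4 called genes with the smallest p could be named. Genes outside this rule, among them Rb1, Bmi1, Kcnq1ot1 and the Foxo genes, were named for their roles after their values were seen. The reference sequences are of GRCm38, not mm9. A marker gene and the sums that hold it are not reported here.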

Additional observations from a re-analysis of the deposited data

How the results depend on the processing

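The 13 alternatives were a pseudocount of 0.1, no filter on low values, a mean RPKM of at least 4, median-ratio and quantile scaling, every transcript row as a feature, no replicate block, and leaving out each library, where a lone library is assumed to vary like the others. Of the inhibitor differences, 219 kept direction and side of the threshold, 18 lost and 2 gained a call, and 12 turned in sign, all among uncalled ones. For the ZnF1 mutant against wild type, Cdkn1b was 0.0015 with median-ratio scaling. Between days Cdkn1b was -0.023 with median-ratio and -0.014 with quantile scaling. With a library left out, values for the ZnF1 mutant against wild type ran from -0.0076 to 0.29 for Cdkn1a, -0.12 to 0.094 for Cdkn1b, -0.29 to 0.044 for Cdkn2a and -0.14 to 0.047 for Cdkn2c, and the day difference of Cdkn1b from -0.045 to 0.15. The cause was not tested.

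For the ZnF1 mutant against wild type, 0 inhibitors were called without the filter, 0 with a mean RPKM of at least 4, where Cdkn2b is not tested, 2 with quantile scaling and 0 to 1 with a library left out. For the ZnF4 mutant against wild type, 1 inhibitor was called without the replicate block and 0 to 2 with a library left out. Over all genes, the ZnF4 mutant against wild type gave 1137 calls without the filter, against 2076. With a library left out, calls ran from 1374 to 4608 for the ZnF1 mutant against wild type, from 403 to 1662 for the ZnF4 mutant against wild type and from 2376 to 3943 between the mutants. In the ZnF1 mutant against wild type, 2606 genes were called higher and 1730 lower, against 2047 and 2913 with quantile scaling and 1406 and 1550 with a mean RPKM of at least 4. Between days 0 genes were called in any alternative. With 2 libraries per genotype and unknown depth, small differences of low genes such as Cdkn2b and Cdkn1c cannot be resolved.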
